A study of Mus musculus with 18 samples.

Results

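The comparison described here concerns the deletion of E2f1, E2f2 and E2f3 in small-intestinal crypts that had lost Myc. It sets the 5 arrays titled E2f/Myc QKO against the 4 titled Myc KO, 9 of the study's 18 arrays, across 18193 genes. The arrays were chosen by their titles alone, and where a gene had several probe sets, the brightest on average across the 18 arrays was used. In the group labelled Myc KO the Myc gene was ablated in the small intestine. In the group labelled E2f/Myc QKO the E2f1, E2f2 and E2f3 genes were ablated as well. The other groups were control (4 arrays) and E2f TKO (5 arrays), labelled as a deletion of E2f1 to E2f3 with Myc left in place. All mice were adults of 2 months, and crypts were taken 2 days after ablation. Deletion used Ah-cre, an inducible Cre whose transgene carries the promoter of Cyp1a1, a gene that aryl hydrocarbons switch on. The labels do not name the strain, the inducing agent or the alleles of the control mice, and do not say whether those carried the Cre. Total RNA was labelled with biotin, and values are the deposited log2 signals, on which a difference of 1 is a 2-fold change. Numbered samples are the replicates. No label says that they came from separate mice, so p-values measure the spread between these samples.

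Most E2F proteins bind DNA as dimers with a DP partner, and the family acts at genes of DNA replication and mitosis. E2F1, E2F2 and E2F3 activate these genes when they are free of the retinoblastoma protein RB, and they can repress them when bound to it. E2F7 and E2F8 are repressors that E2Fs themselves switch on, and MYC, another transcription factor, drives growth and ribosome production. Crypts hold the stem cells and the dividing progenitors of the intestinal epithelium, beside mature secretory cells, and cells between the crypts can come along when they are isolated.

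The 9 arrays resembled each other closely, with medians of 6.22 to 6.26 and correlations of 0.983 to 0.995 between pairs, none of them identical. The first principal component held 41.3% of the variance and ran from -23.7 to -17.6 in Myc KO and from 7.62 to 31.6 in E2f/Myc QKO, with array 4 of the latter at the far end. Markers of crypt cells were among the brightest signals, with means in Myc KO of 14.5 for the Paneth cell lysozyme Lyz1, 12.7 for the goblet cell mucin Muc2 and 13.0 for the stem cell marker Olfm4. Enterocyte markers were bright too, at 14.0 for Alpi. As detection calls were not used, it is not known which dim signals exceed background. In such bulk samples, fewer cells of a type and less RNA per cell cannot be told apart. Arrays 4 and 5 of E2f/Myc QKO had high signal for Xist, at 13.4 and 13.0, where the other 3 measured 6.83 to 6.96 and the 4 Myc KO arrays 6.62 to 6.74. Signal of Cyp1a1 was 13.07 to 13.80 on all 9 arrays. It was missing on the arrays labelled E2f TKO 2 and 5. On these, E2f3 measured 9.35 and 9.10, above all 4 control arrays (8.62 to 8.96), whereas E2f TKO 1, 3 and 4 measured 8.22, 8.39 and 8.08. The main results that rest on E2f TKO are therefore also given without these 2 arrays. They were not like control in every gene. Cdkn2c measured 6.95 and 6.97 on them, against 6.40 to 6.65 on E2f TKO 1, 3 and 4 and 9.66 to 10.23 in control. As differences from the Myc KO mean, their licensing gene means were 0.40 and 0.45 (control -0.05 to 0.22). Their mitotic gene means, 0.11 and -0.01, lay within control (-0.02 to 0.20). What sets these arrays apart was not tested.

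The targeted transcripts gave a partial check of the labels. Myc signal was 8.40, 8.19, 8.11 and 8.25 in Myc KO and 8.52, 7.94, 8.24, 8.05 and 8.02 in E2f/Myc QKO, against a control mean of 9.92. The groups overlapped and both lay below control. E2f3 measured 8.44, 8.52, 8.55 and 8.60 in Myc KO and 8.17, 8.09, 8.14, 8.19 and 8.11 in E2f/Myc QKO. Every E2f/Myc QKO array lay below every Myc KO array, but the difference of -0.39 ± 0.19 (standard error here and below) did not pass the test (limma, adjusted p = 0.26). It passed in a fit of these 2 groups alone (adjusted p = 0.0026), and the adjusted p ranged from 0.0026 to 0.509 over 29 alternative settings. E2f1 differed by 0.06 ± 0.11 and E2f2 by 0.28 ± 0.13, and neither passed (adjusted p = 0.821 and 0.241). A further E2f1 probe set was higher by 0.50 ± 0.10 (limma over all probe sets, adjusted p = 0.0044). A second E2f3 probe set was at -0.30 ± 0.12, and its groups overlapped (same fit, adjusted p = 0.171). The remaining E2f1 and E2f2 probe sets were at 0.15 and -0.06 and did not pass. Where these probe sets lie relative to the deleted exons was not tested.

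Of the 18193 genes, 1398 passed the test, a moderated test on all 18 arrays with Benjamini-Hochberg adjustment over all genes at 0.05. That is 7.68% of the genes, with 836 (4.6%) higher and 562 (3.09%) lower in E2f/Myc QKO. A change of at least 2-fold was seen for 101 of the higher and 71 of the lower genes. The arrays of the groups did not overlap for 1236 of the genes called, and for 2497 (13.7%) of all genes. The median difference over all genes was 0.01. Counts moved with single arrays. They were 918 without Myc KO 3 (345 lower) and 921 without Myc KO 4 (552 higher, 369 lower), and 543 genes were higher without Myc KO 1. Without E2f TKO 1, which enters only through the estimate of the spread, 2008 genes passed (856 lower). Without both E2f/Myc QKO arrays of high Xist signal, 850 genes passed.

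Among the direct regulators of the cell cycle, the CDK inhibitor Cdkn2c, which encodes the INK4 protein p18 that blocks CDK4 and CDK6, had the smallest p of all genes. Its signal was 10.34, 10.28, 10.68 and 10.59 in Myc KO and 7.21, 7.01, 7.02, 6.98 and 7.05 in E2f/Myc QKO. The groups stood far apart, with little spread in either, and the fall was 10.7-fold (-3.42 ± 0.13, limma adjusted p = 2.98e-11). Its neighbour in the family, Cdkn2d (p19 INK4), measured 7.94, 7.89, 8.37 and 8.14 against 6.90, 6.92, 6.87, 6.86 and 6.53. All 5 E2f/Myc QKO arrays were lower, by 1.27 ± 0.14 in the mean (limma, adjusted p = 2.98e-05). Cdkn2b (p15 INK4) was at 10.40, 10.80, 10.38 and 10.42 in Myc KO and at 10.11, 9.43, 10.03, 7.89 and 8.90 in E2f/Myc QKO. The groups did not overlap, but the fall varied between arrays, being deepest on arrays 4 and 5. Its adjusted p of 0.033 (limma, -1.23 ± 0.34) rose to 0.0986 without Myc KO 2, was over 0.05 without Myc KO 1, 3 or 4 or E2f/Myc QKO 2 or 5, and ranged from 0.0129 to 0.128 over the settings. Without arrays 4 and 5, the 2 of high Xist signal, the difference was -0.64 (adjusted p = 0.128). The other 4 inhibitors, Cdkn1a, Cdkn1b, Cdkn1c and Cdkn2a, differed by -0.18 to 0.17 and did not pass. So 3 of 7 inhibitors fell and 0 rose, beside 3.09% of all genes lower.

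**Figure D1:**
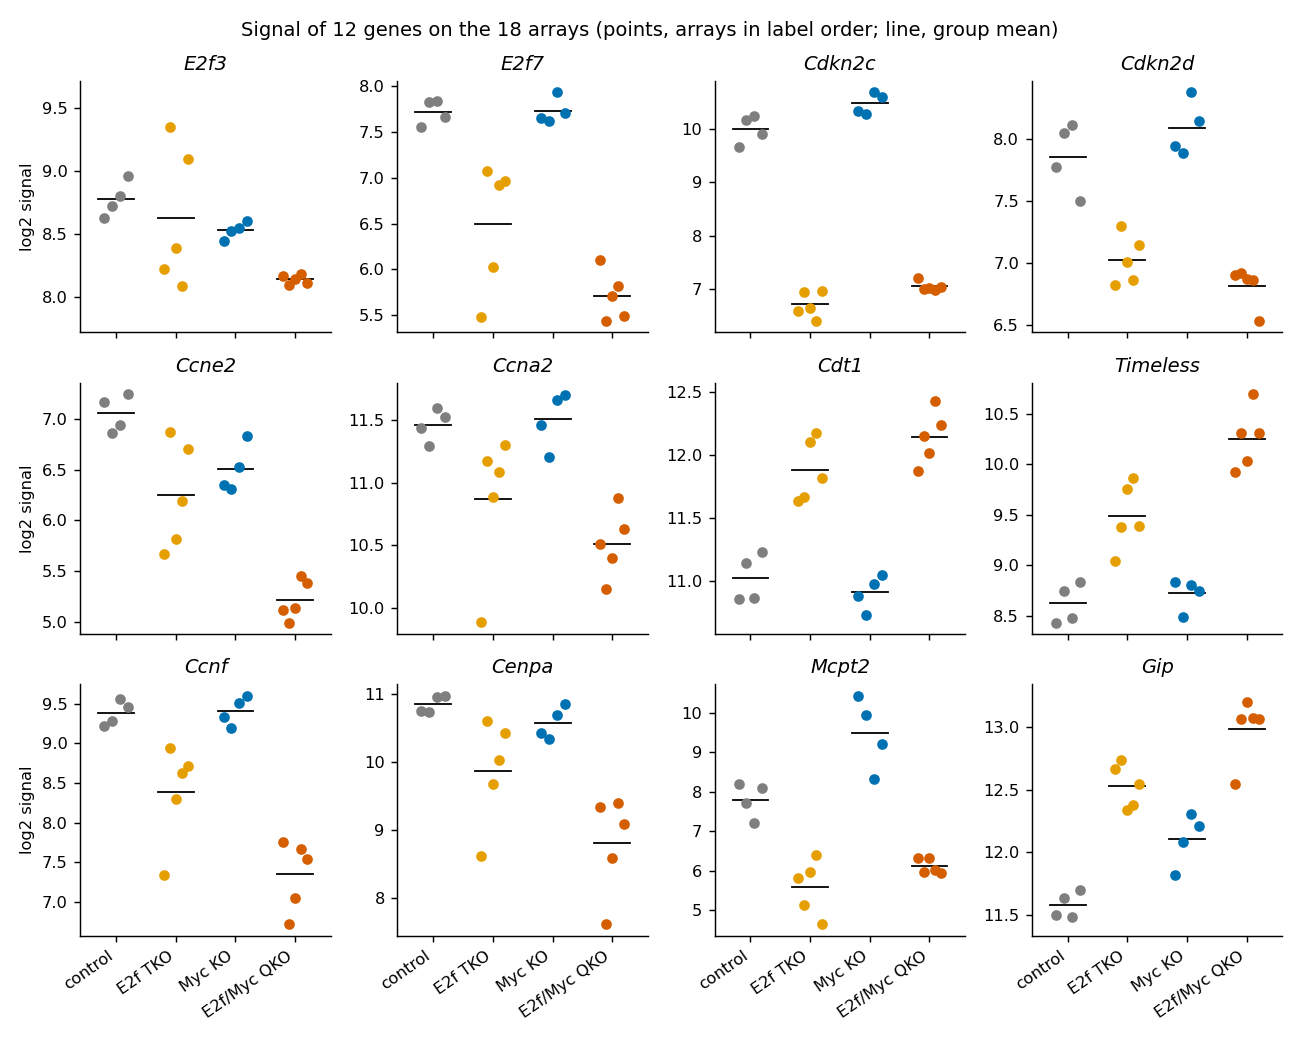
Log2 signal (vertical axis) of 12 genes on each of the 18 arrays, by group on the horizontal axis, with a point per array and a line at the group mean. In every panel the E2f/Myc QKO points lie wholly above or wholly below the Myc KO points, and Cdkn2c shows the widest gap against its spread (10.28 to 10.68 against 6.98 to 7.21).

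In the E2f family itself, 1 of the 10 measured members and DP partners passed. E2f7, the repressor, measured 7.66, 7.62, 7.93 and 7.71 in Myc KO and 6.10, 5.44, 5.71, 5.82 and 5.49 in E2f/Myc QKO. All 5 arrays lay well below the lowest Myc KO array, a 4.05-fold fall (-2.02 ± 0.25, limma adjusted p = 0.000104). The related repressor E2f8 differed by -0.20 ± 0.21 and overlapped. E2f4, E2f5 and E2f6 and the partners Tfdp1 and Tfdp2 differed by -0.04 to 0.22 and did not pass. Of 10 pocket proteins and partners of the MuvB complex, Rbl1 (p107) rose by 0.35 (limma, adjusted p = 0.0178), while Rb1 differed by -0.24 and Rbl2 by -0.32 without passing. The promoters of Cdkn2c and E2f7 are printed because these regulators fell furthest, and were chosen after their values were seen. Here and below a promoter runs from 200 bases before to 30 bases after a RefSeq start of GRCm38.p6 (the most upstream start in the table), on the gene's strand, and capitals mark matches to a motif on either strand.
Cdkn2c: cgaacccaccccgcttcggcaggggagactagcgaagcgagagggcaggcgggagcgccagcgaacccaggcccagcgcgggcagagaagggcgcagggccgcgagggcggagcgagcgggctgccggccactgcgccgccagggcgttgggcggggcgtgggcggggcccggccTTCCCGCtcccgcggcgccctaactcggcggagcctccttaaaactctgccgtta
E2f7: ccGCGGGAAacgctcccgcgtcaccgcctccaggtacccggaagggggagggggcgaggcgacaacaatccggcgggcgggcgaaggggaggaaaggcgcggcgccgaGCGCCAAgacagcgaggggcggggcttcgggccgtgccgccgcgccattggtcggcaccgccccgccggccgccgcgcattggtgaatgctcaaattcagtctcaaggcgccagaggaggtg
The search covered the E2F word TTCCCGC, its variant with inner letters changed, TTCGCGC, a further variant of the same length, TTGCCGC, and finally the variant TTGGCGC. It also covered the cell cycle homology region, TTTGAA, and the E-box that MYC dimers bind, CACGTG. Cdkn2c, at chr4:109666727-109666956 (minus strand), holds TTCCCGC 25 bases before the start. E2f7, at chr10:110745239-110745468 (plus strand), holds TTCCCGC on the other strand at -198 and TTGGCGC on the other strand at -92. Such a match is a description of the letters, and no binding was measured.

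Cyclins and their kinases split. The D cyclins, which open G1 by activating CDK4 and CDK6, were higher, and Ccne2 and Ccna2, which act at and after the start of S phase, were lower. Ccnd1 measured 9.56, 9.26, 9.67 and 9.57 in Myc KO and 10.14, 10.24, 10.19, 10.98 and 10.45 in E2f/Myc QKO. No array overlapped, and array 4 of E2f/Myc QKO was the highest (0.88 ± 0.19, limma adjusted p = 0.0068). Ccnd3 rose by 0.62 ± 0.14 (limma, adjusted p = 0.0123), but did not pass without the 2 arrays of high Xist signal (adjusted p = 0.0803, range over settings 0.00283 to 0.0803), and measured 0.33 with its probe sets averaged. Values of 0.56 for Ccnd2, 0.47 for Cdk2 and 0.74 for Cdk6 passed at adjusted p of 0.0487, 0.0213 and 0.0319 (limma). Without E2f/Myc QKO 4 these reached 0.119, 0.0546 and 0.0818, and over all settings they ran from 0.0139 to 0.256, 0.00463 to 0.149 and 0.00676 to 0.187. Other single arrays ended these calls too. Without Myc KO 2 the adjusted p was 0.0941 for Ccnd2, 0.0669 for Cdk2 and 0.121 for Cdk6. Without E2f/Myc QKO 5 it was 0.103, 0.0513 and 0.0691. Ccnd2 also failed without Myc KO 1, 3 or 4, E2f/Myc QKO 2 or 3, control 3 or 4 or E2f TKO 3, 4 or 5, and Cdk6 without Myc KO 1 or 3 or E2f/Myc QKO 2.

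Ccne2, the E-type cyclin, measured 6.35, 6.31, 6.53 and 6.84 in Myc KO and 5.12, 4.99, 5.13, 5.45 and 5.38 in E2f/Myc QKO. The groups did not overlap, and the fall was 2.45-fold (-1.29 ± 0.20, limma adjusted p = 0.000751). Ccna2, cyclin A, which works in S phase and G2, was at 11.45, 11.20, 11.66 and 11.70 against 10.51, 10.15, 10.40, 10.87 and 10.63. Again all 5 E2f/Myc QKO arrays were lower, by 0.99 ± 0.22 in the mean (limma, adjusted p = 0.0088). Ccne1 differed by -0.22 ± 0.08 without overlap and did not pass (adjusted p = 0.086), and by -0.71 (adjusted p = 0.0039) where probe sets that match several transcripts were left out. Its adjusted p thus rests on the probe set chosen. Over the whole list, 5 of 10 rose and 2 fell, beside 4.6% and 3.09% of all genes.

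Genes of DNA replication were higher. Of 24 genes of origin licensing and firing, 15 rose and 0 fell, with a median difference of 0.70, beside 4.6% of all genes higher and a median of 0.01. Of 28 genes of the replication fork and of chromatin assembly, 15 rose and 0 fell (median 0.50). Of 24 genes of the S-phase checkpoint and DNA repair, 12 rose and 0 fell (median 0.44). At an unadjusted p under 0.05 the higher and lower members numbered 17 and 1, 24 and 1, and 18 and 0. Without E2f TKO 1, 23 fork genes rose, and 1 licensing and 1 fork gene fell.

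Cdt1, which loads the MCM helicase onto origins, measured 10.88, 10.72, 10.98 and 11.05 in Myc KO and 11.87, 12.15, 12.01, 12.43 and 12.24 in E2f/Myc QKO. Every E2f/Myc QKO array was higher, and the rise was 2.35-fold (1.23 ± 0.13, limma adjusted p = 2.98e-05). Its loading partner Cdc6 rose by 1.18, and the helicase subunits Mcm2, Mcm4, Mcm5 and Mcm7 rose by 1.03 to 1.15. Gins2, a subunit of the GINS complex that fires the helicase, was at 9.64, 9.41, 9.72 and 9.79 against 10.53, 10.85, 10.96, 11.36 and 11.15. Its groups did not overlap, and array 4 of E2f/Myc QKO was the highest (1.33 ± 0.17, limma adjusted p = 0.000104). Mcm3 and Mcm6, Mcm10, Cdc45, Gins1, Gins3, Orc1 and the CDT1 inhibitor Gmnn also rose, by 0.44 to 1.02, of which Gins1 was at 0.39 in place of 0.97 with its probe sets averaged. The origin complex genes Orc2 to Orc6 did not pass, with differences of -0.15 to 0.28, and Dbf4, which activates the kinase CDC7, was at -0.44 (adjusted p = 0.187).

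At the fork, Timeless, which stabilises it, measured 8.84, 8.49, 8.81 and 8.75 in Myc KO and 9.92, 10.31, 10.04, 10.70 and 10.31 in E2f/Myc QKO. All 5 arrays were higher, with array 4 the highest (1.53 ± 0.16, 2.89-fold, limma adjusted p = 2.99e-05). Rpa2, a subunit of the protein that coats single-stranded DNA, was at 9.36, 9.16, 9.36 and 9.54 against 10.09, 10.26, 10.19, 10.61 and 10.48. It too did not overlap (0.97 ± 0.13, limma adjusted p = 0.000217). The clamp loader genes Rfc2 to Rfc5, the ligase Lig1, the polymerase subunits Pole2, Pold1, Pold3 and Pola2 and the nuclease Fen1 rose by 0.43 to 0.93, and the maintenance methylation factor Uhrf1 by 0.99. Pcna, the sliding clamp, was at 0.28 and did not pass (adjusted p = 0.0725). The polymerase genes Pola1 and Pold2 were at -0.08 and -0.21 and did not pass either.

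Promoters of the 4 replication genes of smallest p that have one in the table are printed because these genes rose together. Gins2 and Rfc2 were passed over, as the table has no entry for them.
Cdt1: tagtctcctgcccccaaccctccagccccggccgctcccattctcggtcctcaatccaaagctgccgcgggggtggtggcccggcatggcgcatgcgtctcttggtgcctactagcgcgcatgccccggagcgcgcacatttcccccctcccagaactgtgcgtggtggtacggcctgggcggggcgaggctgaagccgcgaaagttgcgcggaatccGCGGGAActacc
Timeless: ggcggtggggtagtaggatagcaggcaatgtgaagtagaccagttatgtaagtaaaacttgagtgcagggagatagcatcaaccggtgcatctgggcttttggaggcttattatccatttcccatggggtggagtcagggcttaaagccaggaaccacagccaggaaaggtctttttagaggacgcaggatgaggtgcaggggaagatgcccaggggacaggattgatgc
Rpa2: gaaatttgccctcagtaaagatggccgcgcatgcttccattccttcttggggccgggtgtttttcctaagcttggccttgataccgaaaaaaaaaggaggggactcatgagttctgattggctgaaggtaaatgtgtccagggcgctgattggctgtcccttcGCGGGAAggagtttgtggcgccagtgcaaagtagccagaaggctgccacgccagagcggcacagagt
Mcm7: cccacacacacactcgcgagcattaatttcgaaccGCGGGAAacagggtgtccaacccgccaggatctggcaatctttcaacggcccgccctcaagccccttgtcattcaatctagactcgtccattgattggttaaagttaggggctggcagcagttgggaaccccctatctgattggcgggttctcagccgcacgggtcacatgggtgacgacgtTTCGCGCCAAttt
Cdt1, at chr8:122567815-122568044 (plus strand), has TTCCCGC on the other strand at +19, and Rpa2, at chr4:132768160-132768389 (plus strand), has it at -37. Mcm7, at chr5:138171854-138172083 (minus strand), has it at -165, and also TTCGCGC at +18 overlapping TTGGCGC on the other strand at +21. Timeless, at chr10:128237866-128238095 (plus strand), holds none of these letters in this window. Over the full promoters of 300 bases, 10 of 19 licensing genes (52.6%) and 14 of 24 fork genes (58.3%) held at least 1 of the 4 E2F words, beside 14.2% of the 14452 tested genes that have a promoter. Genes higher in E2f/Myc QKO held one in 22.4% and genes lower in it in 16.5%. These are shares of letters, with no test.

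In the checkpoint and repair list, Rad54l, which acts in homologous recombination, measured 9.05, 8.72, 9.04 and 9.14 in Myc KO and 9.89, 10.39, 10.19, 10.85 and 10.43 in E2f/Myc QKO. It rose on all 5 arrays, by 1.36 ± 0.17 (limma, adjusted p = 0.000127). The checkpoint kinases Chek1 and Chek2 rose by 1.10 ± 0.14 and 0.97 ± 0.14, and the repair gene Brca1 by 0.94 ± 0.15. With probe sets averaged, Chek1 was at 0.62. Ung, Palb2, Blm, Msh6, Fancd2, Topbp1, Exo1 and Bard1 completed the 12, at 0.41 to 1.04. Genes of deoxynucleotide supply did not follow as a group. Rrm1, the large subunit of ribonucleotide reductase, was the 1 of 10 that passed (0.66 ± 0.17, limma adjusted p = 0.0221), and it did not pass without E2f/Myc QKO 4 or 5 or Myc KO 1 or 2 (adjusted p = 0.0527 to 0.0708, range over settings 0.00304 to 0.155). The thymidine kinase Tk1 was at 0.00, Dut at 0.00 and the thymidylate synthase Tyms at -0.48, and none of these passed.

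Mitotic genes were lower. Of 84 measured, 33 fell and 1 rose, with a median of -0.54, beside 3.09% of all genes lower. The riser was Zwilch, a kinetochore gene (0.56, limma adjusted p = 0.0352), and no mitotic gene passed as higher without Myc KO 1, 2 or 3 or E2f/Myc QKO 2, 4 or 5. Without E2f TKO 1, 53 fell. The groups did not overlap for 49 of the 84, beside 13.7% of all genes. Ccnf, cyclin F, a ubiquitin ligase subunit of G2, measured 9.34, 9.20, 9.50 and 9.60 in Myc KO and 7.75, 6.72, 7.05, 7.67 and 7.54 in E2f/Myc QKO. All 5 were lower, with array 2 lowest, a 4.18-fold fall (-2.06 ± 0.26, limma adjusted p = 0.000107). Nusap1, a spindle protein, was at 9.98, 9.80, 10.19 and 10.22 against 8.42, 7.60, 7.76, 8.24 and 8.12. It did not overlap either (-2.02 ± 0.27, limma adjusted p = 0.000226). Cenpa, the centromere histone, measured 10.42, 10.34, 10.69 and 10.85 against 9.33, 7.61, 8.58, 9.39 and 9.08. Its fall differed between arrays and was deepest on array 2 (mean -1.78 ± 0.36, limma adjusted p = 0.00486). With the probe sets of a gene averaged, Cenpa was at -0.86 and Nusap1 at -1.34, and both passed.

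The fall ran through several steps of division, as further members chosen as examples after their values were seen show. Ccnb2, cyclin B, fell by 1.75, the CDK1 phosphatases Cdc25b and Cdc25c by 1.22 and 1.04, and Fbxo5, an inhibitor of the anaphase-promoting complex, by 1.50. Of the spindle and kinetochore genes, Tpx2 fell by 1.45, Hmmr by 1.38, Cenpf by 1.68, Spc25 by 1.09 and Ndc80 by 0.90. Separase (Espl1) fell by 1.46, and the cytokinesis genes Racgap1 and Anln by 1.55 and 1.21. The proliferation marker Mki67 fell by 1.49 (limma, adjusted p = 0.0129) and topoisomerase Top2a by 1.24. Not every central gene passed. Cdk1 was at -0.42 (limma, adjusted p = 0.203), Aurka at -0.62 (0.0832), Aurkb at -0.73 (0.0558) and Bub1 at -0.50 (0.186).

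The 2 mitotic genes of smallest p are shown with their promoters, since the list fell together.
Ccnf: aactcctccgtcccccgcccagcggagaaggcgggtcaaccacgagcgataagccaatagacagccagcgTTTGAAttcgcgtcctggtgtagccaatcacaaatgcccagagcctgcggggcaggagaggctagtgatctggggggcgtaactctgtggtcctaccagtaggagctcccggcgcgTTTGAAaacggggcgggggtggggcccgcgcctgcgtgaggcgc
Nusap1: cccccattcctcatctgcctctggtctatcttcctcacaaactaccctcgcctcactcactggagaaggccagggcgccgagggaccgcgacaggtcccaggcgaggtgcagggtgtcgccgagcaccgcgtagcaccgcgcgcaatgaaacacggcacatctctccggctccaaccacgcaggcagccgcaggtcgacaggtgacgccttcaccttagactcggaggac
Ccnf, at chr17:24251380-24251609 (minus strand), has TTTGAA at -130 and at -14. Nusap1, at chr2:119618098-119618327 (plus strand), has none of the letters searched in this window. Of 72 mitotic genes with a promoter, 49 (68.1%) held TTTGAA within the 300 bases, beside 13.4% of tested genes, 26.3% of licensing genes and 12.5% of fork genes. An E2F word was in 22.2% of them. Among the mitotic genes that passed, 24 of 30 (80%) held TTTGAA and 3 of 30 (10%) an E2F word, beside 14.2% of tested genes with an E2F word.

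**Figure D2:**
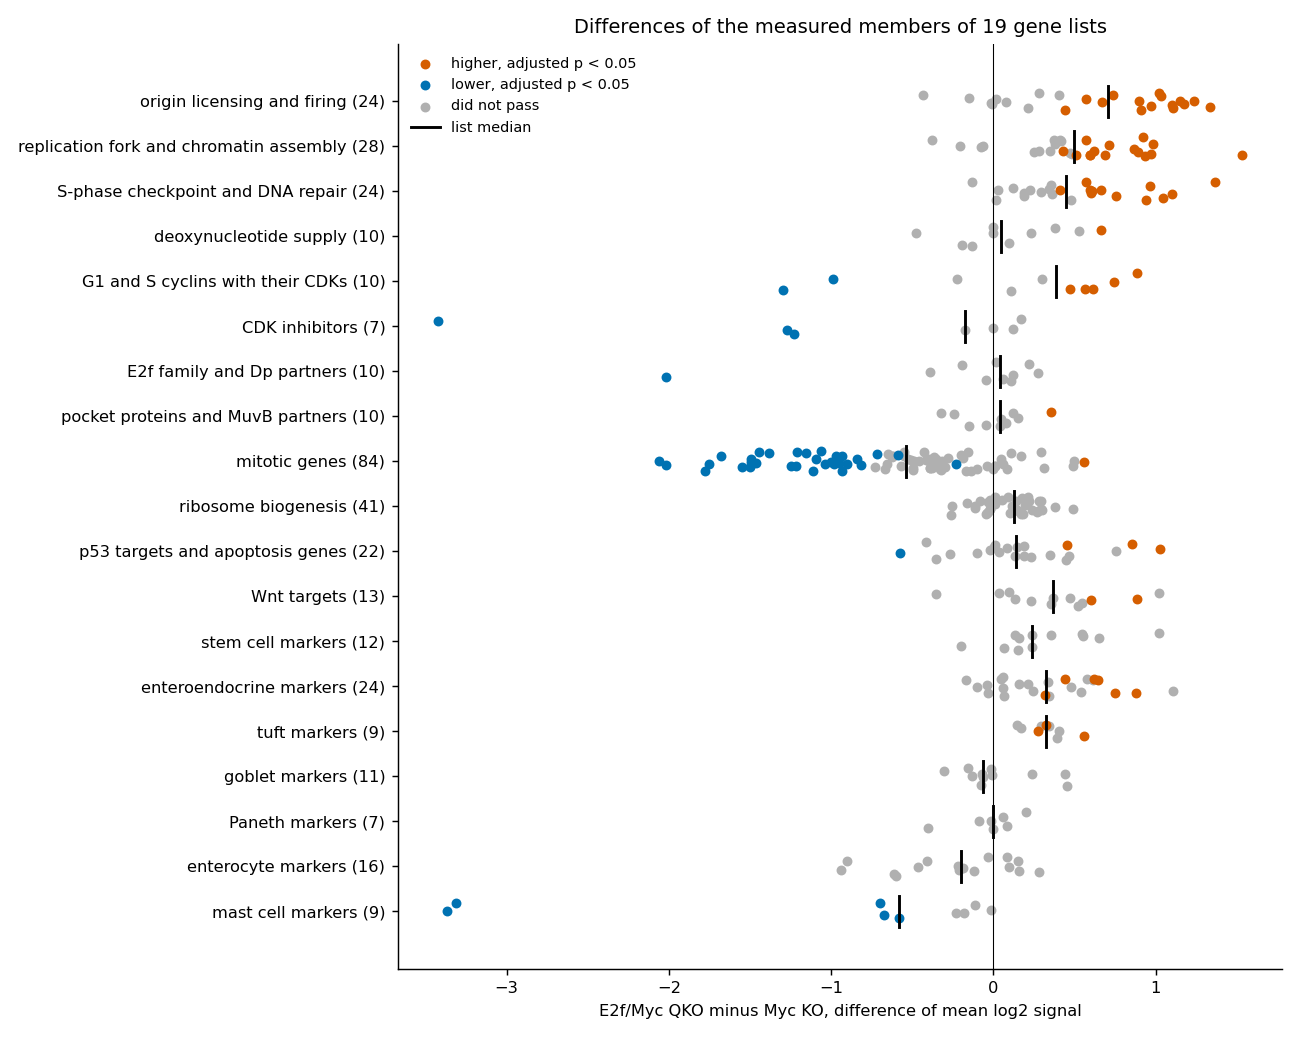
Difference of mean log2 signal, E2f/Myc QKO minus Myc KO (horizontal axis), of each measured member of 19 gene lists (rows, with the number measured), coloured by the test, with the list median as a bar. Licensing genes centre at 0.70 and fork genes at 0.50 to the right of 0, and mitotic genes centre at -0.54 to its left.

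The opposite shifts of replication and mitotic genes were present on each array. Taking the mean of a list's members on an array as its difference from the Myc KO mean, licensing genes were at -0.03, -0.18, 0.08 and 0.13 in Myc KO and at 0.38, 0.53, 0.53, 0.90 and 0.73 in E2f/Myc QKO. Mitotic genes were at -0.07, -0.17, 0.06 and 0.18 against -0.59, -0.93, -0.80, -0.32 and -0.50. Neither list overlapped between the groups. Within E2f/Myc QKO, array 4 had the highest licensing and the least lowered mitotic mean. The enterocyte list moved on the same array, at 0.05, 0.09, 0.02 and -0.16 in Myc KO and -0.01, 0.11, 0.16, -1.27 and -0.21 in E2f/Myc QKO. Without array 4, licensing genes still had 15 members higher (median 0.61), fork genes 14 (0.43) and mitotic genes 36 lower (-0.61). Without arrays 4 and 5 these counts were 13, 9 and 36, with medians of 0.57, 0.40 and -0.68. The part of differing cell mixtures in these shifts was not tested.

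**Figure D3:**
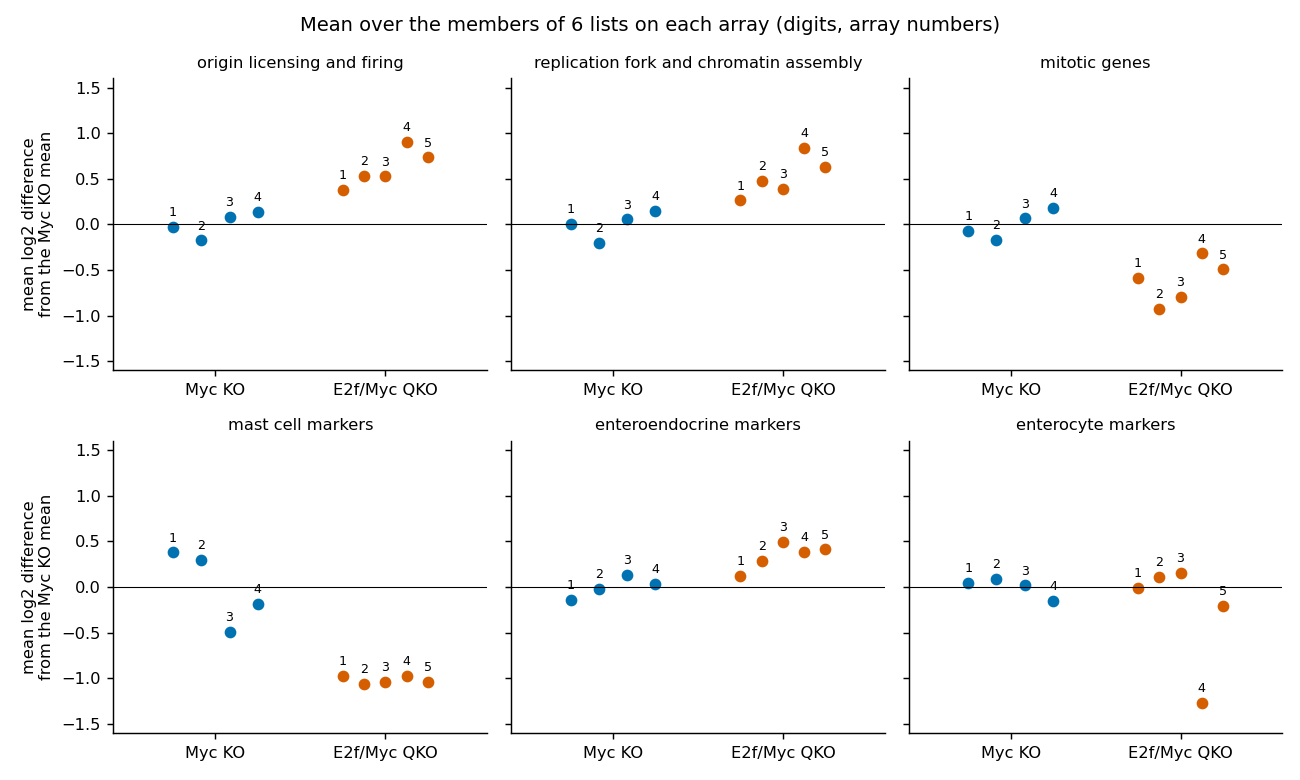
Mean over a list's members of the log2 difference from the Myc KO mean (vertical axis), for 6 lists, on each Myc KO and E2f/Myc QKO array, with array numbers beside the points. Licensing and fork genes lie higher and mitotic and mast cell genes lower on all 5 E2f/Myc QKO arrays, and the enterocyte mean is low on array 4 (-1.27).

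Of 41 ribosome biogenesis genes 0 passed in either direction under limma, with differences of -0.26 to 0.49 and a median of 0.13, and at an unadjusted p under 0.05 there were 6 higher and 0 lower. Their median in Myc KO against control was -0.65, a value that shares the Myc KO arrays with this comparison. Of 24 genes of nucleotide, serine and one-carbon synthesis, Umps and Prps2 rose and 0 fell (median 0.12), a share called of 8.33% that lies near the 7.68% of all genes. Of 22 p53 targets and apoptosis genes, Trp53inp1, Eda2r and Zmat3 rose by 0.86, 1.03 and 0.46 and Bid fell by 0.58, a share of 18.2% beside 7.68%. No gene of this list passed without Myc KO 3, Myc KO 4, E2f/Myc QKO 2 or E2f/Myc QKO 3, and 6 rose without E2f TKO 1. With probe sets averaged, Trp53inp1 was at 0.55. Cdkn1a, a p53 target counted among the inhibitors, was at 0.17 ± 0.32.

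Markers of the differentiated crypt cells differed by lineage. Of 24 enteroendocrine markers 6 rose and 0 fell (median 0.33), beside 4.6% of all genes higher. Gip, the incretin hormone, measured 11.82, 12.09, 12.30 and 12.21 in Myc KO and 12.55, 13.06, 13.19, 13.07 and 13.06 in E2f/Myc QKO. The groups did not overlap, with array 1 of E2f/Myc QKO the closest to Myc KO (0.88 ± 0.13, limma adjusted p = 0.000353). The prohormone convertase Pcsk1 rose by 0.65 ± 0.12, somatostatin (Sst) by 0.75 ± 0.15, and Tac1, Chgb and Scg3 by 0.62, 0.44 and 0.32. Chga, at 0.58, and Nts, at 1.10, did not pass (adjusted p = 0.0608 and 0.0709). Between 4 and 8 members rose when single arrays were left out, and 3 without both arrays of high Xist signal.

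Of 9 tuft cell markers 3 rose, beside 4.6% of all genes, and the median of the 9 was 0.33. Avil measured 8.14, 8.15, 8.23 and 8.16 in Myc KO and 8.55, 8.76, 8.53, 9.09 and 8.73 in E2f/Myc QKO. Its groups were separate, and the Myc KO spread was narrow (0.56 ± 0.12, limma adjusted p = 0.00652). Alox5 and Pou2f3 passed at 0.33 and 0.27, but without Myc KO 2, Myc KO 4 or E2f/Myc QKO 4 Avil alone did. Goblet (11), Paneth (7), enterocyte (16) and stem cell (12) markers had 0 members called in either direction under limma, with medians of -0.07, -0.0014, -0.20 and 0.24. At an unadjusted p under 0.05 they had 1, 0, 0 and 5 higher and 0, 0, 1 and 0 lower members. The stem cell marker Lgr5 was at 7.45, 7.29, 7.52 and 7.48 against 7.43, 8.30, 8.19, 9.55 and 8.80. Array 1 overlapped Myc KO while array 4 was highest, and the difference of 1.02 ± 0.36 did not pass (adjusted p = 0.0978). Of 13 Wnt targets Ccnd1 and Etv4 rose (median 0.37), and 4 did without E2f TKO 1. Etv4, at 0.60 ± 0.14, did not pass without arrays 4 and 5 of E2f/Myc QKO (adjusted p = 0.0996, range over settings 0.00385 to 0.0996).

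Mast cell proteases were among the largest falls. Mcpt2 measured 10.43, 9.95, 8.32 and 9.21 in Myc KO and 6.31, 5.97, 6.33, 6.02 and 5.94 in E2f/Myc QKO. Myc KO varied widely while E2f/Myc QKO was uniform and near the array median, a 10.3-fold fall (-3.37 ± 0.37, limma adjusted p = 3.52e-05). Mcpt1 was at 10.07, 9.66, 7.44 and 8.62 against 5.76, 5.53, 5.79, 5.62 and 5.49 (-3.31 ± 0.38). These proteases form a family of close copies, and signal shared between their probe sets was not tested. Mcpt4, the receptor gene Fcer1a and the carboxypeptidase Cpa3 fell by 0.58, 0.70 and 0.67, so that 5 of 9 mast cell markers were lower, beside 3.09% of all genes, and 0 higher. Mcpt4 and Fcer1a were dim already in Myc KO, with means of 5.50 and 4.38 below the Myc KO array medians of 6.22 to 6.26. Fcer1a did not pass in the fit of the 2 groups alone or without Myc KO 1 (limma, adjusted p = 0.0533 and 0.0503). Without Myc KO 1, 3 of the 9 passed. In Mcpt2, Myc KO lay above the control mean of 7.80 by 1.68 (limma, adjusted p = 0.0148), and E2f/Myc QKO lay below it. The mean log2 signal of all 9 markers was 6.05 to 6.92 in Myc KO, 5.48 to 5.57 in E2f/Myc QKO and 5.87 to 6.08 in control. The part of differing mast cell numbers was not tested. Markers of T cells (10), B and plasma cells (5), macrophages (7), fibroblasts and muscle (11) and endothelium (5), as well as interferon response genes (13), had 0 members called under limma, and 0, 1, 0, 0, 1 and 0 at an unadjusted p under 0.05. Medians, in that order, were -0.08, -0.45, 0.0004, -0.03, 0.03 and -0.39. Of the interferon genes 11 of 13 lay below 0. As differences from the Myc KO mean, their list means were -0.11, -0.22, -0.73 and 1.07 in Myc KO and -0.76 to 0.13 in E2f/Myc QKO.

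The largest rise outside the lists was that of St3gal4, a sialyltransferase of glycoproteins, at 5.58, 6.27, 6.40 and 6.13 in Myc KO and 12.03, 11.96, 10.93, 10.15 and 11.40 in E2f/Myc QKO. The groups lay far apart although both varied, and the rise was 36.7-fold (5.20 ± 0.72, limma adjusted p = 0.000282). Amph, which encodes the membrane-bending protein amphiphysin, was at 4.01, 4.30, 3.98 and 4.00 against 6.26, 6.89, 6.86, 7.22 and 6.72. It rose on all 5 arrays from a level below the array median (2.72 ± 0.31, limma adjusted p = 4.89e-05). The membrane mucin Muc4 rose by 2.60, the adhesion receptor Adgrg6 by 2.05, the asparaginase Aspg by 1.96 and the brush border protease Mep1a by 1.85. Kctd14, Epdr1, D17H6S56E-5 and Wdfy1 rose by 1.91 to 1.99. Several of these sizes rest on the probe set. Without probe sets marked as matching several transcripts, Muc4 was at 1.14 and Adgrg6 at 0.44, both still past the test, and with probe sets averaged Wdfy1 was at 1.17. Pdia2 rose by 2.00 and did not pass without E2f/Myc QKO 3 or 4 or Myc KO 3 or 4 (adjusted p = 0.051 to 0.0743, range over settings 0.000565 to 0.097). Ak4, at 1.86, was at -0.07 on a probe set without the suffix that marks shared transcripts.

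Rbp7, a retinol-binding protein, showed the largest fall, with 10.55, 8.88, 10.31 and 10.42 in Myc KO and 6.63, 5.80, 6.33, 5.94 and 6.23 in E2f/Myc QKO. Myc KO 2 was lower than the other Myc KO arrays and still above all of E2f/Myc QKO (-3.85 ± 0.43, 14.4-fold, limma adjusted p = 3.67e-05). Pyroxd2 fell by 2.00 (1.25 with probe sets averaged) and the histone gene H2bc21 by 1.98. The class I gene H2-Bl fell by 2.08 and did not pass without Myc KO 3 or 4 (adjusted p = 0.0701 and 0.068, range over settings 0.00483 to 0.103), and probe sets of class I genes can share signal. Bcl2l15, an apoptosis-related gene, was at -2.23 with an adjusted p of 0.0464, which exceeded 0.05 in 18 of 29 settings (up to 0.233). Rbp7 lies within 20 Mb of E2f2, and Amph and Epdr1 lie within 20 Mb of E2f3. Replication genes lie in such windows too, among them Rpa2 (near E2f2) and Gins1 (near E2f1). In such windows around the 3 E2f genes 100 of 1181 genes (8.47%) were called, beside 1298 of 17012 (7.63%) elsewhere. With genes in the windows not counted, 13 licensing and 14 fork genes were higher and 30 mitotic genes lower. Whether flanking DNA of the targeted alleles has a part in these genes was not tested.

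The same deletion in crypts with Myc, E2f TKO against control, used none of these 9 arrays and called 527 genes (2.9%). Of the 1398 genes called here, 1305 (93.3%) had the same sign there, beside 64.9% of all genes, and 309 were called in both, 22.1% of the first list and 58.6% of the second. All 309 had the same sign. Across all genes, which are not independent replicates, the effects correlated at r = 0.64 (Spearman rho 0.494). Without E2f TKO 2 and 5 the second list grew to 1322 genes, 465 were shared (33.3% and 35.2%), and r was 0.552. Side by side, the differences without and with Myc were -3.42 and -3.27 for Cdkn2c, -2.02 and -1.23 for E2f7, 1.23 and 0.86 for Cdt1, 1.53 and 0.86 for Timeless, and -2.02 and -0.89 for Nusap1. Without E2f TKO 2 and 5, the values with Myc were -3.44, -1.58, 0.95, 0.93 and -1.29.

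Differences were larger in size without Myc for 1253 of the 1398 genes, but these genes were chosen by that very contrast, and over all genes the share was 58% (47.9% without E2f TKO 2 and 5). List medians without and with Myc were 0.70 and 0.33 for licensing, 0.50 and 0.20 for fork and -0.54 and -0.38 for mitotic genes. With E2f TKO 2 and 5 left out, those with Myc became 0.36, 0.16 and -0.60. Mitotic genes lower with Myc numbered 3 with all E2f TKO arrays and 28 without those 2. The arrays that then remained were uneven. As a difference from the Myc KO mean, their mitotic list means were -1.04 on E2f TKO 1, -0.30 on 3 and -0.18 on 4. Control arrays were at -0.02 to 0.20, so E2f TKO 1 lay much further below them than 3 and 4 did. The test of the difference itself called 10 genes (0.055%), and 1153 genes had an unadjusted p under 0.05. The replication, checkpoint and mitotic lists had 0 genes among the 10 (limma, smallest adjusted p = 0.652). Without control 2, 3 or 4 or E2f TKO 2 the count was 6.

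Retnlb, a goblet cell protein with antimicrobial activity, differed most between the backgrounds. It measured 12.59, 14.23, 13.61 and 12.97 in Myc KO and 13.44, 14.37, 13.89, 13.84 and 13.47 in E2f/Myc QKO. The groups overlapped, whereas E2f TKO averaged 6.11 against 12.1 in control, so that the difference of effects was 6.47 (limma, adjusted p = 2.05e-06). Amacr, a racemase of branched-chain fatty acid oxidation, went the other way. It was at 9.33, 9.49, 9.44 and 9.57 against 7.82, 7.74, 7.62, 8.22 and 8.42. All 5 E2f/Myc QKO arrays were lower (-1.49 ± 0.15, limma adjusted p = 1.73e-05), while E2f TKO differed from control by -0.08. The transcription factor Cebpb fell by 0.60 ± 0.07 without Myc and was at -0.07 with it. Its difference of effects of -0.53 did not pass without any 1 of the Myc KO arrays (limma, adjusted p = 0.0859 to 0.147), or of the control arrays (0.118 to 0.139), and ran from 0.0198 to 0.18 over all settings. The remaining 7 were Elobl, Scpep1, 9930104L06Rik, Ndufs5, Cybrd1, Rims2 and Cap1, and the calls of Rims2 and Cap1 were as unsteady. The Rims2 difference did not pass without any 1 of the control arrays, Myc KO 1, 3 or 4, E2f TKO 2, 3 or 5, or E2f/Myc QKO 1, 2 or 4 (adjusted p 0.0529 to 0.12). That of Cap1 did not pass without control 2, 3 or 4, Myc KO 1 or 2, E2f TKO 2, or E2f/Myc QKO 1 or 2 (0.0509 to 0.0983). Over all settings they ran from 0.00488 to 0.952 and from 0.000324 to 0.0983. With E2f TKO 2 and 5 left out, 10 genes passed again, but Rims2, Cap1 and Cebpb did not (0.0806, 0.0763 and 0.0763). Cap1, Ndufs5 and 9930104L06Rik lie within 20 Mb of E2f2, and Cebpb lies within 20 Mb of E2f1. Such windows hold 1181 of the 18193 genes, and 6 of the 10 called genes remained when genes in them were not counted. Whether flanking DNA of the targeted alleles has a part in these calls was not tested.

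**Figure D4:**
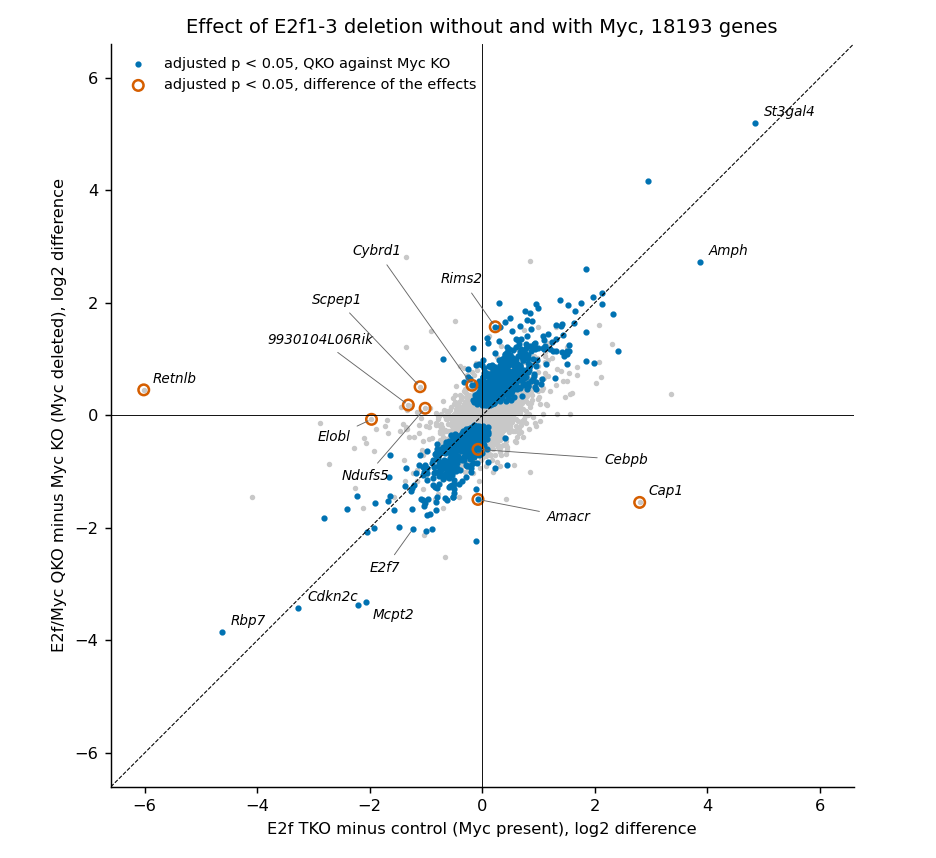
Log2 difference of each of 18193 genes between E2f/Myc QKO and Myc KO (vertical axis) against that between E2f TKO and control (horizontal axis), with genes called in the first in blue, the 10 genes called for the difference of the effects ringed, and equality as a dashed line. Most called genes lie in the quadrants of equal sign, and Retnlb (0.45 against -6.01) and Cap1 (-1.55 against 2.80) lie far from the line.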

How the data were processed

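The deposited values are log2 signals per probe set from single-channel Affymetrix-type arrays, on total RNA isolated with TRIzol and RNeasy, per the labels' protocols. The log2 scale was read from the values (2.29 to 14.81), and the normalization the authors used is not given in the sources used here. Of 45101 probe sets, 34945 name 1 gene symbol, 932 several and 9160 none, and 64 are controls. The probe set of highest mean over all 18 arrays stood for each of 18193 genes. limma 3.58.1 (R 4.3.3) fitted the 4 group means on 18 arrays, with Benjamini-Hochberg adjustment over all genes at 0.05, and was tested on simulated data. Figures and promoters used Python 3.11.15. Genes are named as targets, as the 12 highest and 12 lowest called differences without overlap, as up to 4 members of smallest p in each list, as all E2f family, cyclin and inhibitor members, and as up to 5 called differences of effects on either side of 0. Further list members were chosen after their values were seen. The comparison and the 27 lists were chosen with earlier results of these data known. RefSeq promoters matched 14452 genes. Signals of near-identical genes can mix on arrays. Alternatives covered normalization, probe set choice, arrays left out, weights and covariates.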

Additional observations from a re-analysis of the deposited data

Results flagged for a closer look

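Among 200 groups of arrays examined, 13 held 1 array set apart from the others. The rule flags about 1 group in 20 by chance, so many of the 13 can be ordinary scatter. In Myc KO, array 2 was the outlying one for Amph (4.30, others 3.98 to 4.01), Rbp7 (8.88, others 10.31 to 10.56), Mcm7 (11.57, others 11.94 to 11.98) and Dctd (6.29, others 6.85 to 6.90). It also stood apart for Eda2r (5.34, others 4.62 to 4.68), Cdk2 (9.15, others 9.27 to 9.30) and Cdkn2b (10.80, others 10.38 to 10.42). Myc KO array 4 stood apart for Wdfy1 (9.16, others 7.49 to 7.59). In E2f/Myc QKO, single arrays stood apart for Gip (array 1, 12.55 against 13.06 to 13.19), Fcer1a (array 3, 3.28 against 3.70 to 3.84) and Dctd (array 4, 7.92 against 6.95 to 7.22). Array 5 did so for Ccne1 (8.26 against 8.48 to 8.55) and Cdkn2d (6.53 against 6.86 to 6.92).

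limma's test of the difference of effects set E2f/Myc QKO minus Myc KO against E2f TKO minus control. The largest values above 0 that passed were those of Retnlb (6.47), Elobl (1.90), Scpep1 (1.61), 9930104L06Rik (1.50) and Rims2 (1.34). Of these only Rims2 rose without Myc, while the other 4 did not pass there and were lower in E2f TKO than in control. Elobl was already lower in Myc KO (mean 5.55) than in control (7.13), a difference of -1.58 (limma, adjusted p = 0.000134). Its means were 5.16 in E2f TKO and 5.48 in E2f/Myc QKO. The difference had the other sign for Cap1 (-4.34), Amacr (-1.42) and Cebpb (-0.53). Cap1 measured 10.64, 10.90, 8.83 and 8.74 in Myc KO and 8.22, 7.66, 8.30, 8.65 and 8.33 in E2f/Myc QKO, so that 2 of the 4 Myc KO arrays lay near the latter. Control was split as well, at 10.34 on array 1 and 7.45, 8.02 and 7.85 on the others. Retnlb was low on E2f TKO 2 and 5 too, at 6.06 and 5.11. Whether differences in background between the groups have a part in these values was not tested. On a probe set without the suffix for shared transcripts, Rims2 did not rise without Myc (0.11, limma adjusted p = 0.5955). Its difference of effects had an adjusted p of 0.952 there.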

How the results depend on the processing

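Of 65 named genes called, 45 passed under every alternative run and 20 missed the threshold at least once, 15 of these when 1 of the 9 arrays was left out. Only Ak4 changed sign, at -0.068 without probe sets that match several transcripts. Leaving out 1 array at a time gave 918 to 2008 genes called, 543 to 1152 higher and 345 to 856 lower. It gave 6 to 14 genes for the difference of effects, 15 to 17 licensing genes and 13 to 23 fork genes higher, and 27 to 53 mitotic genes lower. Without both E2f/Myc QKO arrays of high Xist signal, 850 genes passed (486 higher, 364 lower) and 9 fork genes rose. With array weights 2265 passed, 1013 of them lower, and 56 mitotic genes fell. With every probe set tested, 876 genes had at least 1 lower. The difference of effects called 6 genes among those above the median level, and 6 when genes near E2f1, E2f2 and E2f3 were not counted. The replicate block gave 1545 genes called (1258 shared), 11 for the difference of effects and 39 mitotic genes lower. It ended the calls of Ccnd2, Pou2f3 and Bcl2l15. Deviations of same-numbered samples correlated at 0.148, 0.203, -0.051 and 0.241, and as 1 pair was not above 0.1 the numbers were not taken to pair samples. For numbers 2 and 4 the same-numbered array was the best match, a hint from the data and not from the design. The causes of these shifts were not tested. The number of arrays limits the precision, and no detection calls bound dim probe sets.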

Other observations

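Several genes outside the lists, chosen after their values were seen, also differed. Hk2 (hexokinase) and Pdk1 (pyruvate dehydrogenase kinase) rose in E2f/Myc QKO by 1.22 and 1.19. Dtl, whose ubiquitin ligase degrades CDT1 during replication, rose by 1.18, and Dscc1, a cohesion factor at the fork, by 1.13. Transthyretin (Ttr) and amylin (Iapp), both made by endocrine cells, rose by 1.67 and 1.64. Among the genes that fell were Cdkn3, a phosphatase of CDKs (-1.67), the microtubule regulator Stmn1 (-1.49), Gclc, which limits glutathione synthesis (-1.31), and the clock output gene Dbp (-1.30). The histone genes H1f2 and H2bc22 were among them (-1.16 and -0.79), and so was Car4, a carbonic anhydrase of mature epithelium (-1.54).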
